A study of Mus musculus with 6 samples.

Results

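Livers of isorhamnetin-treated NASH mice (NASH+ISO) were compared with livers of healthy control mice (CTL) to describe what still differed from healthy liver after treatment, and what differed under treatment but hardly without it. Every probe set of the deposited value table entered the comparison except the array's own controls, which left 45037 probe sets and, with the brightest probe set that names a single gene, 20670 genes. The comparison used 4 of the 6 arrays of the series, 2 of NASH+ISO and 2 of CTL. The other 2, of untreated NASH mice, say where a difference already stood without treatment, and they enter the fit's estimate of the spread.

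All groups were male C57BL/6J mice, 6 weeks old on arrival and 8 in a group, whose livers were taken on day 25. NASH+ISO mice ate a diet with 60% of its calories from fat from day 0 to day 24. They received 4 intraperitoneal injections of carbon tetrachloride (CCl4, a liver toxin) at 0.1 ml/kg on days 14, 17, 21 and 24, and 5 of T0901317 at 2.5 ml/kg from day 20 to day 24. They were also given isorhamnetin by mouth each day at 50 mg/kg from day 11 to day 24. NASH mice had the same diet and injections with vehicle in place of isorhamnetin. CTL mice ate chow and had vehicles alone. NASH+ISO and CTL thus differed in the diet, CCl4, T0901317 and isorhamnetin together, and the parts of these in a difference cannot be told apart. The sources call both arrays of a group technical repeats and do not say how many mice an array stands for. Errors and p-values therefore measure the spread between arrays, which may be smaller than that between mice.

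Isorhamnetin is a methylated flavonoid of plants and a metabolite of quercetin. T0901317 activates the liver X receptors (LXR), nuclear receptors that sense oxysterols and switch on fatty acid synthesis, largely through the transcription factor SREBP-1c. A second SREBP, made from Srebf2, raises cholesterol synthesis when sterols run low. CCl4 is turned by cytochrome P450 enzymes of the hepatocytes around the central vein into a radical that kills them, and the liver answers with hepatocyte division, inflammation and deposition of collagen by stellate cells.

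Expression is given as log2 of the RMA signal, a scale on which a difference of 1 is a 2-fold change. Array medians lay between 3.49 and 3.50 in NASH+ISO, were 3.46 in NASH and 3.50 in CTL. The repeat arrays differed by a median of 0.0525 in NASH+ISO and 0.0529 in CTL, while the NASH+ISO and CTL means differed by a median of 0.128. The highest value among 17 tag controls, which match no mouse transcript, was 2.90 and served as a guide to background. For a group under it, the fold was computed against the guide and is written as at least so many fold. The 28 measured genes of hepatocyte identity, among them albumin, averaged 9.64 in NASH+ISO and 9.80 in CTL, and 0 passed 2-fold in either direction. In the array's controls, a probe set for the 5′ end of 18S ribosomal RNA read 8.45 and 8.46 in NASH+ISO, against 10.53 and 10.53 in CTL. All 14 probe sets for the bacterial RNAs bioB, bioC and bioD, spiked in at hybridization, were higher in NASH+ISO than in CTL, by a median of 0.30, and the probe sets for cre, spiked in with them, by 0.10 to 0.15. The 3′ minus the 5′ signal of Gapdh, a measure of RNA or labelling quality, was 3.30 and 3.29 in NASH+ISO, 3.01 and 3.0 in NASH and 3.82 and 3.79 in CTL, and that of Actb was 5.02 and 4.98 in NASH+ISO, 4.43 and 4.41 in NASH and 5.00 and 4.88 in CTL. The part of these shifts in the results below was not tested.

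At the thresholds of the study (2-fold, and p under 0.05 before adjustment) 964 probe sets (2.14%) were called different. Of these, 608 (1.35%) were higher and 356 (0.79%) lower in NASH+ISO. Of the genes, 540 (2.61%) were called, 348 higher (1.68%) and 192 lower (0.929%). The same 964 probe sets passed with Benjamini-Hochberg adjusted p from limma, and the highest adjusted p among the called genes was 0.000508. At adjusted p alone, with no fold, 9564 genes (46.3%) passed, 4806 higher and 4758 lower, as did 42.7% of the probe sets. The median difference over all genes was -0.01.

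Of the higher genes, 63 were at least 4-fold and 14 at least 8-fold above CTL. Of the lower genes, 27 were at least 4-fold and 8 at least 8-fold below it. Scd2, a desaturase that makes monounsaturated fatty acids, read 10.69 and 10.72 in NASH+ISO, against 4.49 and 4.24 in CTL, a rise of 6.34 (SE 0.0779). All 3 of its probe sets rose, the least of them by 1.36. Ly6d, a small surface protein, read 7.63 and 7.60 in NASH+ISO and 2.68 and 3.17 in CTL (difference 4.69, SE 0.139). Afp, the albumin of the fetal liver, read 6.37 and 6.35 in NASH+ISO and lay under the guide in CTL, at 2.23 and 2.24, so it was at least 11-fold higher, by 2 of its 5 probe sets. Smoc2, a secreted matricellular protein, was at least 13.3-fold higher, with 6.55 and 6.70 in NASH+ISO and 2.92 and 2.83 in CTL. D9Wsu90e was at least 12.7-fold higher. The rises of Fabp5, Pnpla3, Mvd, G6pdx, Ehhadh, Elovl6 and Acacb, described below, were also among the 15 largest, with Pdzk1ip1 (3.19), the aldose reductase relative Akr1b7 (3.16) and the long noncoding RNA Neat1 (3.15, where its other probe set differed by -0.31).

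**Figure D1:**
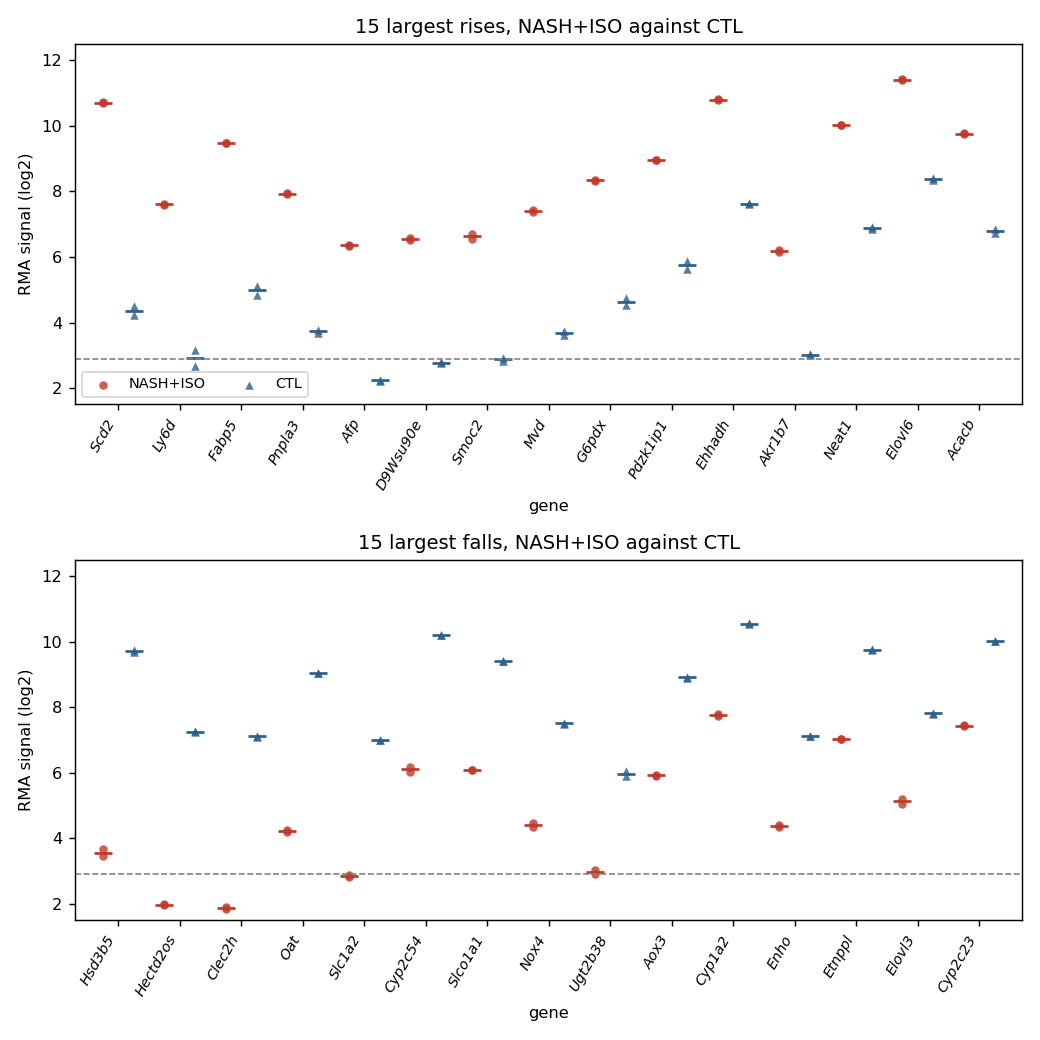
RMA signal (log2) of the 15 genes with the largest rises (upper panel) and the 15 with the largest falls (lower panel) of NASH+ISO against CTL. Each point is an array, each bar the mean of 2 arrays, and the dashed line the background guide of 2.90. The arrays of the groups do not overlap for any of the 30 genes, which is so for every called gene and is nearly set by the 2-fold call. Hectd2os, Clec2h and Slc1a2 lie under the guide in NASH+ISO.

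The deepest fall was that of Hsd3b5, a steroid dehydrogenase of male mouse liver, which read 3.45 and 3.67 in NASH+ISO, against 9.69 and 9.74 in CTL (difference -6.16, SE 0.0818). Oat, the ornithine aminotransferase of pericentral hepatocytes, read 4.18 and 4.25 in NASH+ISO and 9.03 and 9.04 in CTL (difference -4.82, SE 0.0519). Cyp2c54, a P450 enzyme, fell to 6.17 and 6.03 in NASH+ISO, against 10.21 on both CTL arrays (difference -4.11, SE 0.0538). For each of these 3 genes, and for every other gene called lower, both NASH+ISO arrays lay below both CTL arrays. With repeat arrays this close, a 2-fold call nearly sets that outcome, so it adds no support. Hectd2os, Clec2h, a C-type lectin, and Slc1a2, a glutamate transporter, lay under the guide in NASH+ISO. Their falls were at least 20.4-fold for Hectd2os, 18.5-fold for Clec2h and 17.2-fold for Slc1a2. Clec2h was called by 2 of its 3 probe sets and Slc1a2 by 3 of 5, and the weakest differed by -0.71 for Clec2h and -0.10 for Slc1a2. Nox4, an oxidase that makes hydrogen peroxide, read 4.35 and 4.47 in NASH+ISO and 7.53 and 7.49 in CTL (difference -3.10, SE 0.0729), and both of its probe sets were called. Enho, which encodes the peptide adropin, fell by 2.75 (SE 0.0486), by 2 of its 4 probe sets, the weakest of which differed by -0.08.

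Most called genes stood on the same side of CTL in NASH without treatment. Of the higher genes, 258 of 348 were called higher in NASH against CTL as well, and of the lower genes 118 of 192 were called lower. NASH against CTL called 2.87% of all genes higher and 1.25% lower, and it shares the CTL arrays with the comparison described here. A further 32 higher and 21 lower genes were within 1.5-fold of CTL in NASH and differed between NASH+ISO and NASH in the same direction at adjusted p. The remaining 58 and 53 lay between these classes, and 0 genes were called in opposite directions. By the direct difference between NASH+ISO and NASH, which 39.7% of all genes (19.9% higher and 19.8% lower in NASH+ISO) and 37.2% of the probe sets passed at adjusted p, 127 of the higher genes were nearer to CTL than NASH was, 147 were further from it and 74 did not pass. Of the lower genes 35 were nearer, 109 further and 48 did not pass. Genes chosen for being far from CTL in NASH+ISO are by that choice more likely to stand further out than in NASH, since the same NASH+ISO arrays enter both differences.

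**Figure D2:**
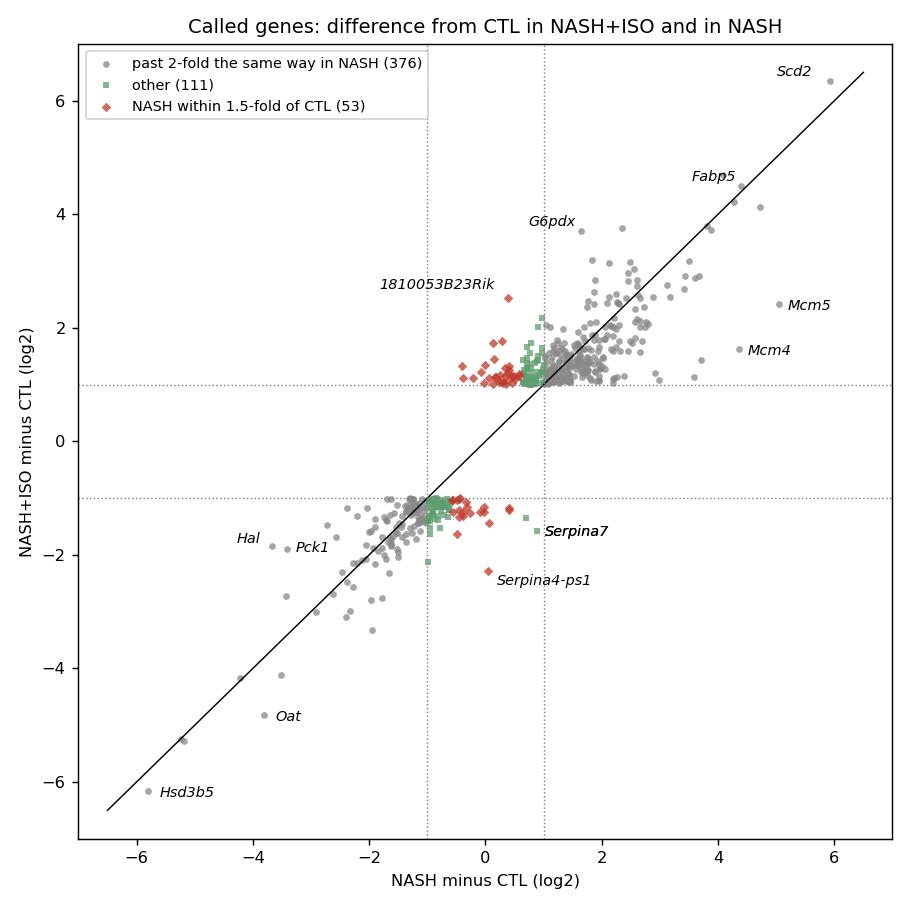
Difference from CTL in NASH+ISO (vertical) against that in NASH (horizontal), both log2, for the 540 called genes. The 376 genes past 2-fold the same way in NASH lie on both sides of the line of equal difference. Among them the replication genes Mcm4 and Mcm5 lie far under it. The 53 within 1.5-fold of CTL in NASH lie near the middle of the horizontal axis, as their choice sets. Both axes share the CTL arrays.

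In 55 lists, of pathways of the liver and of its cell types, 1035 genes were measured, and of these 115 were called higher and 56 lower, while 369 called genes stood in no list. A gene can be in several lists. Each list count below is to be read beside the shares among all genes, 1.68% higher and 0.929% lower. These include 5102 genes under the guide in both groups, of which 0 were called. Calls were more frequent among bright genes, 4.02% higher and 1.9% lower where the brighter group read 6 to 8 log2. At 8 to 10 log2 they were 6.32% and 4.9%.

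**Figure D3:**
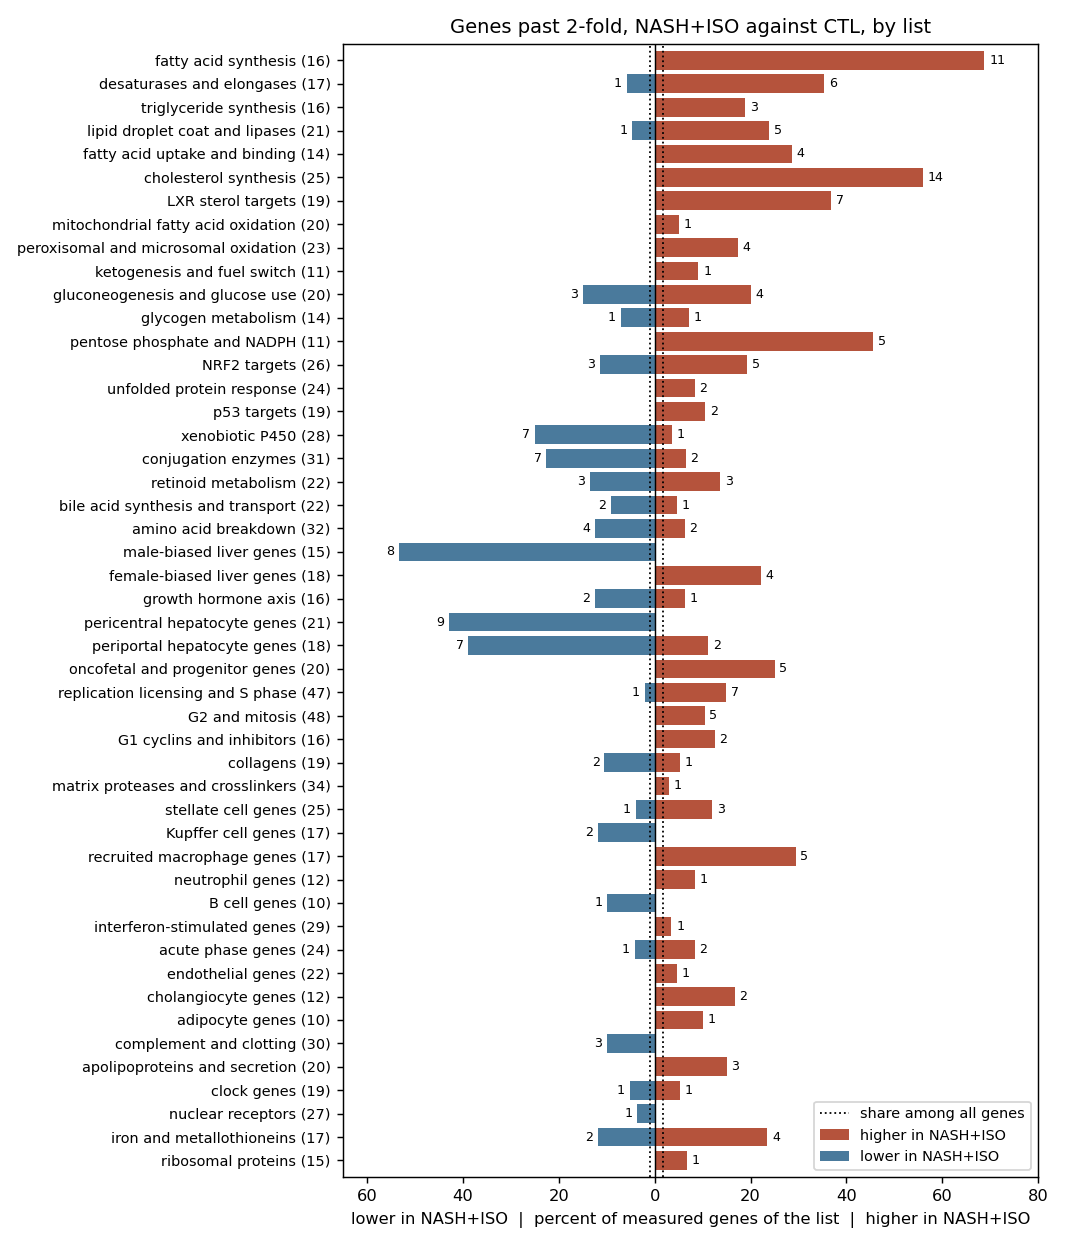
Percent of the measured genes of each list called higher (right) or lower (left) in NASH+ISO against CTL, with the number of called genes at each bar and the number measured in brackets. Dotted lines mark the shares among all genes, 1.68% higher and 0.929% lower. Fatty acid synthesis (11 of 16) and cholesterol synthesis (14 of 25) reach furthest to the right, male-biased liver genes (8 of 15) and pericentral genes (9 of 21) furthest to the left. Lists with 0 called genes are not drawn.

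Fatty acid synthesis carried the highest share of any list: 11 of its 16 measured genes were higher, 0 lower, with a median difference of 1.38. Acetyl-CoA for the pathway comes from citrate through Acly and from acetate through Acss2. Acly read 11.54 and 11.53 in NASH+ISO and 10.13 and 10.18 in CTL (1.38, SE 0.0392). Acss2 read 11.50 and 11.49 in NASH+ISO and 9.95 and 9.94 in CTL (1.55, SE 0.0371), with all 4 of its probe sets called. Fatty acid synthase, Fasn, read 11.60 and 11.58 in NASH+ISO, against 8.75 and 8.74 in CTL (2.84, SE 0.0375). Acacb, the acetyl-CoA carboxylase of the mitochondrial surface, read 9.74 and 9.77 in NASH+ISO and 6.85 and 6.72 in CTL (2.97, SE 0.0523). This was by 1 of its 2 probe sets, and the other differed by -0.17. Its cytosolic relative Acaca is read by probe sets that also name another locus. The brighter of these gave 10.05 and 10.04 in NASH+ISO, 9.0 and 8.97 in NASH and 7.72 and 7.66 in CTL, so the rise over CTL was 2.36 in NASH+ISO and 1.30 in NASH. Me1, the malic enzyme that supplies NADPH, rose by 2.52, and the acyl-CoA synthetases Acsl3 and Acsl5 by 2.11 and 1.38. Among the regulators, Srebf1, the gene of SREBP-1c, read 10.34 and 10.36 in NASH+ISO and 9.12 and 9.10 in CTL (1.24, SE 0.0387), and Mid1ip1 and Thrsp, which promote carboxylase activity and lipogenesis, rose by 2.05 and 1.42. The LXR genes Nr1h3 (0.30) and Nr1h2 (-0.06), and Mlxipl, the carbohydrate-responsive factor ChREBP (0.79), did not pass 2-fold. By the direct difference from NASH, 5 of the 11 stood further from CTL (Acacb, Fasn, Acss2, Thrsp and Acly) and 4 nearer (Acsl3, Mid1ip1, Aacs and Srebf1).

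Cholesterol synthesis had 14 of 25 genes higher, 0 lower, with a median difference of 1.06, and most of its called genes lay nearer to CTL than in NASH. The pathway builds mevalonate from acetyl-CoA, joins isoprene units to squalene and closes and trims the sterol rings. In its mevalonate arm, Mvd read 7.44 and 7.38 in NASH+ISO and 3.75 and 3.61 in CTL (3.73, SE 0.0548). Fdps, which makes farnesyl diphosphate, read 6.94 on both NASH+ISO arrays and 4.22 and 4.17 in CTL (2.75, SE 0.0412). Sqle, the epoxidase that commits squalene to sterols, read 7.92 and 7.82 in NASH+ISO and 5.47 and 5.56 in CTL (2.36, SE 0.0531). Among the later enzymes Lss rose by 1.54, Cyp51 by 1.49 and Msmo1 by 1.08. The other 11 genes were not called. Of these, Fdft1 (0.96) and Hmgcs1 (0.91) were just under 2-fold, while Insig1 (0.50) and Srebf2 (0.01) were further from it. Of the 14 called, 9 were nearer to CTL than in NASH by the direct test, led by Msmo1 (1.96 in NASH) and Cyp51 (2.03 in NASH), 2 were further, Acat2 and Dhcr7, and 3 did not pass.

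**Figure D4:**
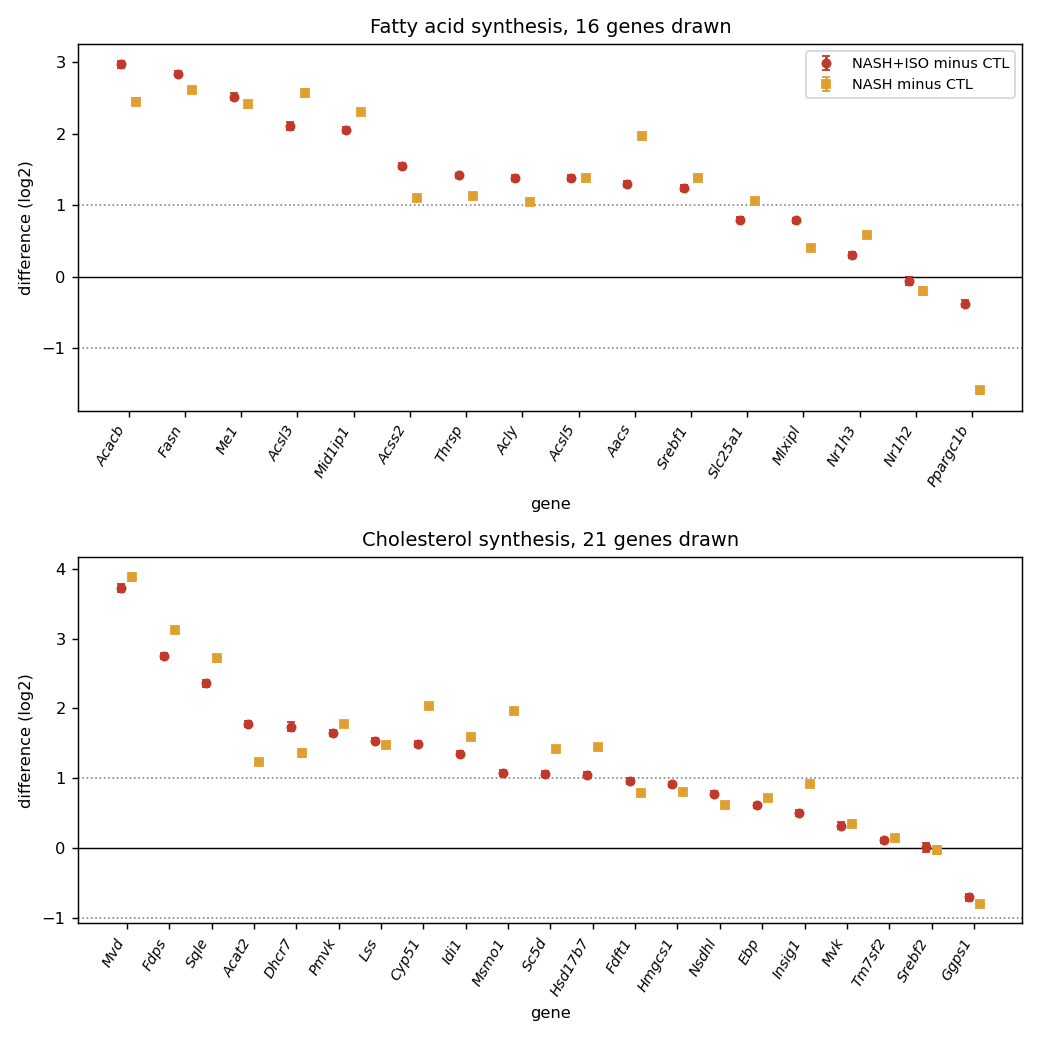
Difference from CTL (log2) of the measured genes of fatty acid synthesis (upper panel) and of those of cholesterol synthesis that are reported by name here (lower panel), in NASH+ISO (circles) and NASH (squares), with the standard error of the fit and dotted lines at 2-fold. Among fatty acid synthesis genes the circles lie above the squares for some and below for others, while most of the cholesterol synthesis genes drawn above 2-fold, Msmo1 and Cyp51 among them, lie nearer to CTL in NASH+ISO than in NASH.

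Most promoters of these genes held a CCAAT box, the binding sequence of NF-Y, a factor known to act beside SREBP. Windows of 300 bases, from 250 before to 50 after the start of transcription, came from RefSeq on GRCm38.p6 and were found for 18 of the 25 cholesterol synthesis genes and 15 of the 16 fatty acid synthesis genes. CCAAT on either strand (ATTGG when on the other strand) was in 17 of the 18 (94.4%) and 11 of the 15 (73.3%), against 41.1% of 27025 genes with a window. Of the cholesterol synthesis genes, 9 of 10 called and 8 of 8 uncalled ones held it, and of the fatty acid synthesis genes 9 of 11 called and 2 of 4 uncalled ones. The sterol element TCACNCCAC was found in Hmgcs1, 137 bases before the start, and in Mlxipl, against 1.44% of all genes. A match is a description of these letters, not a site of binding. The windows of Mvd, Idi1 and Lss, of Fasn, the enzyme at the centre of the other pathway, and of Hmgcs1 are shown as examples of rising genes of both pathways and as a window that holds both motifs. Capitals mark CCAAT or ATTGG, which overlap once in Fasn, and in Hmgcs1 also the sterol element.
Mvd, chr8:122443373-122443672, minus strand: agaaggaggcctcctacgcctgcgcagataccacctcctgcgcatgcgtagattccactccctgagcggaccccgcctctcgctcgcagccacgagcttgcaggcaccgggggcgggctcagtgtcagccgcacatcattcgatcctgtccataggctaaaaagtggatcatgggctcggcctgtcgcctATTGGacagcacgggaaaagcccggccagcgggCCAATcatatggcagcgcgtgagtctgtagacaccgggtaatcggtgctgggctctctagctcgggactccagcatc
Idi1, chr13:8885356-8885655, plus strand: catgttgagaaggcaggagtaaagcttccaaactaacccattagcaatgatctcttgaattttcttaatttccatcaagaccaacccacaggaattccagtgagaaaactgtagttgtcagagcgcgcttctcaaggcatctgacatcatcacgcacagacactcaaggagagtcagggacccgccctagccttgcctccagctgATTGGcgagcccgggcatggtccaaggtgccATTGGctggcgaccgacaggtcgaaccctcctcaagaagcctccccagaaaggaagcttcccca
Lss, chr10:76531355-76531654, plus strand: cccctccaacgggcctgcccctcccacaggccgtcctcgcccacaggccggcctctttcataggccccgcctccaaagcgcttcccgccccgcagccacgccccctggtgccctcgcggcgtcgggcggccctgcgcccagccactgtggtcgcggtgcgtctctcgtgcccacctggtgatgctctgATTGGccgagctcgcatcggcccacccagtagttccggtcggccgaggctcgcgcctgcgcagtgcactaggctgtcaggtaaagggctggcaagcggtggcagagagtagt
Fasn, chr11:120824498-120824797, minus strand: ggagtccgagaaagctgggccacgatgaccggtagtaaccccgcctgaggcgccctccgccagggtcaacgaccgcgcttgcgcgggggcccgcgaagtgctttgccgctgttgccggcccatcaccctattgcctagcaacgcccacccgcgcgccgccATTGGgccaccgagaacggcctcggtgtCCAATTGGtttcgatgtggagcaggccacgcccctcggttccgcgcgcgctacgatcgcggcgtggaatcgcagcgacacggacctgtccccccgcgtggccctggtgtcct
Hmgcs1, chr13:119690101-119690400, plus strand: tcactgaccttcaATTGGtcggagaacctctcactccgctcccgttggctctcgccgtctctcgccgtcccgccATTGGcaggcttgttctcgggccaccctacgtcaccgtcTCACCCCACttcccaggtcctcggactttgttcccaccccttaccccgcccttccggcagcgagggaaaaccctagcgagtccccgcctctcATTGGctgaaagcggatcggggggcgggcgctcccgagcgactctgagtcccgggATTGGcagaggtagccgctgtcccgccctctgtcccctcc
Mvd rose by 3.73, Idi1 by 1.35, Lss by 1.54 and Fasn by 2.84, while Hmgcs1, the only cholesterol synthesis gene with the sterol element in this window, differed by 0.91.

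Downstream of synthesis, 6 of 17 desaturase and elongase genes were higher and 1 lower. Elovl6, which lengthens palmitate to stearate, read 11.39 and 11.43 in NASH+ISO and 8.36 and 8.40 in CTL (3.03, SE 0.0393). The desaturases of polyunsaturated fatty acids, Fads2 and Fads1, rose by 1.88 and 1.17. Elovl3, an elongase of male liver, was the lower one, with 5.05 and 5.20 in NASH+ISO and 7.80 and 7.82 in CTL (-2.68, SE 0.0607). Scd1, the main hepatic desaturase, depended on the probe set. The brighter gave 12.48 on both NASH+ISO arrays and 11.96 and 11.99 in CTL (0.50), and the dimmer gave 10.34 and 10.36 in NASH+ISO and 7.14 and 7.16 in CTL (3.20).

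Of 21 lipid droplet and lipase genes 5 were higher and 1 lower. Pnpla3, a lipase of the droplet surface, read 7.96 and 7.91 in NASH+ISO and 3.77 and 3.69 in CTL (4.21, SE 0.0453). Plin2, the main droplet coat protein of a fatty hepatocyte, read 10.89 and 10.92 in NASH+ISO and 9.79 and 9.83 in CTL (1.10, SE 0.0393). Fitm1, which helps droplets bud from the endoplasmic reticulum, fell by 1.66. Of the uptake and binding genes 4 of 14 were higher: Fabp5 (9.47 on both NASH+ISO arrays, 5.12 and 4.84 in CTL), lipoprotein lipase Lpl (10.20 and 10.21 in NASH+ISO, 7.40 and 7.36 in CTL), the fatty acid receptor Cd36 (8.33 and 8.30 in NASH+ISO, 5.89 and 5.82 in CTL) and Fabp4 (7.95 on both NASH+ISO arrays, 5.56 and 5.63 in CTL). A brighter probe set that names Fabp5 with a second gene rose by 2.13. Fabp1, the abundant binding protein of hepatocytes, differed by -0.02. Of 16 triglyceride synthesis genes the acyltransferases Gpat3 (2.05), Gpam (1.72) and Agpat2 (1.20) were higher, and Dgat2, of the last step, differed by -0.35. Of 19 LXR sterol targets 7 were higher and 0 lower (median 0.80). These include Lpcat3 (1.15) and the phospholipid transfer protein Pltp (1.08), with the sterol exporters Abcg5 (0.81) and Abca1 (0.80) under 2-fold. Cyp7a1, the rate-limiting enzyme of bile acid synthesis, read 7.98 and 7.90 in NASH+ISO, 9.01 and 9.02 in NASH and 6.34 and 6.40 in CTL, so it stayed 1.57 above CTL and was nearer to it than in NASH.

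Of 20 genes of mitochondrial fat oxidation only the thioesterase Acot2 was called (2.02), with a list median of 0.31, and the gate enzyme Cpt1a differed by -0.05. Of 23 peroxisomal and microsomal genes 4 were higher. Ehhadh, the peroxisomal bifunctional enzyme, read 10.79 and 10.82 in NASH+ISO and 7.61 and 7.65 in CTL (3.18, SE 0.0403). Acot1, a cytosolic thioesterase, rose by 2.92, and the omega-hydroxylases Cyp4a31 and Cyp4a14 by 2.58 and 1.39. Acot1, Acot2 and the Cyp4a genes have near-identical relatives, and their probe sets may read more than the gene named. Pdk4, the kinase that shuts off pyruvate dehydrogenase, read 5.59 and 5.70 in NASH+ISO and 3.56 and 3.52 in CTL (2.11, SE 0.0516). Of these 6 genes, Ehhadh, Acot1, Acot2, Cyp4a14 and Pdk4 were nearer to CTL than in NASH.

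Of 11 genes of NADPH supply 5 were higher and 0 lower, and of the 5 called 2 stood further from CTL than in NASH. G6pdx, the dehydrogenase that opens the pentose phosphate pathway, read 8.36 and 8.32 in NASH+ISO, 6.35 and 6.20 in NASH and 4.54 and 4.74 in CTL. Its rise over CTL was 3.70 (SE 0.0768), and NASH+ISO stood 2.06 above NASH (limma adjusted p = 7.54e-06). Pgd, the next dehydrogenase of the pathway, read 10.18 and 10.21 in NASH+ISO and 7.74 and 7.71 in CTL (2.47, SE 0.042), 0.70 above NASH. Rpia rose by 1.80 and Taldo1 by 1.03, and Tkt differed by 0.30.

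In glucose metabolism, 4 of 20 genes were higher (20%) and 3 lower (15%), against 1.68% and 0.929% of all genes. The list averaged 8.26 in NASH+ISO, and genes at 8 to 10 log2 had 6.32% higher and 4.9% lower. Pklr, the pyruvate kinase of liver, read 9.39 on both NASH+ISO arrays, 8.59 and 8.61 in NASH and 8.33 and 8.34 in CTL, so that it was 1.05 above CTL where NASH was 0.26 above it. Pck1, the key enzyme of glucose synthesis, read 9.36 and 9.32 in NASH+ISO and 11.27 and 11.21 in CTL (-1.90, SE 0.0413), and in NASH it was lower still (-3.41). Irs1, an adaptor of the insulin receptor, fell by 1.52. G6pc, the last enzyme of glucose output, differed by 0.39.

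On the lower side, the genes that male liver expresses above female liver held the largest share: 8 of 15 measured were lower, 0 higher, with a median of -1.04. In male mice growth hormone arrives in pulses that act through STAT5b and set this pattern. Besides Hsd3b5, Elovl3 and Ugt2b38 (-3.00), they were Slco1a1, an organic anion transporter, which read 6.08 and 6.09 in NASH+ISO, 7.50 and 7.42 in NASH and 9.42 and 9.41 in CTL (-3.33, SE 0.0421), Cyp7b1, an oxysterol hydroxylase (-2.47), the complement genes C8a (-2.04) and C6 (-1.04), and Serpina4-ps1 (-2.28). Slco1a1 was further from CTL than in NASH by 1.38, on both of its probe sets. Cyp4a12a (-0.49) and Cyp2d9 (-0.72), also of male liver, did not pass 2-fold. Of 18 female-biased genes 4 were higher, led by Cyp17a1, a steroid hydroxylase, which read 7.18 and 7.20 in NASH+ISO and 4.31 and 4.40 in CTL (2.84, SE 0.0432), and 13 of the 18 lay above the background guide. In the growth hormone axis itself, Socs2, a target and inhibitor of the receptor's signal, read 5.21 and 5.40 in NASH+ISO, 6.45 and 6.48 in NASH and 6.47 and 6.65 in CTL (-1.25). Of its 6 probe sets 2 were called lower, and the differences of all 6 ran from -2.03 to 0.08. Igf1 (-0.58), Ghr (-0.86), Igfals (-0.93) and Bcl6, a repressor that STAT5 opposes (-0.34), did not pass 2-fold.

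Xenobiotic P450 and conjugation enzymes were lower as well, 7 of 28 and 7 of 31, against 1 and 2 higher. Cyp1a2, a pericentral P450 that oxidizes caffeine and aromatic amines, read 7.73 and 7.79 in NASH+ISO, 8.60 and 8.57 in NASH and 10.54 and 10.56 in CTL (-2.79, SE 0.0411). Cyp2c23 (named Cyp2c44 in the file), Cyp2c50, Cyp2c38, Cyp2f2 and Cyp2j5 also fell (-2.57, -1.78, -1.45, -1.38 and -1.01, in that order). Cyp2e1, the enzyme that activates CCl4, differed by -0.89, and Cyp3a11 by 0.04. The glucuronosyltransferases Ugt2b1 (-1.41), Ugt2a3 (-1.39), Ugt2b5 (-1.32), Ugt2b35 (-1.29) and Ugt3a1 (-1.08) were all lower, and all 5 stood further from CTL than in NASH, where the list had 3 genes called lower. Nnmt, which methylates nicotinamide, fell by 1.34 and was nearer to CTL than in NASH. Both gene families have close relatives that a probe set may not separate. Aox3 and Aox1, aldehyde oxidases, fell by 2.99 and 1.35. Ahr, the receptor that induces Cyp1a2, read 6.70 on both NASH+ISO arrays and 7.86 and 7.87 in CTL (-1.16).

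Genes of both ends of the liver lobule were lower. Of 21 pericentral genes 9 were lower and 0 higher (median -0.63), and of 18 periportal genes 7 were lower and 2 higher (median -0.49). Wnt signals from the central vein maintain the pericentral program. Glul, its glutamine synthetase, read 9.36 on both NASH+ISO arrays and 10.85 and 10.87 in CTL (-1.5). Tbx3, a Wnt target (-1.53), the Wnt inhibitor Znrf3 (-1.21) and the R-spondin receptor gene Lgr5 (-1.13) fell as well, while Axin2, a common Wnt readout, differed by -0.13. Of these 9 genes, 6 were further from CTL than in NASH. In contrast, 6 of the 9 called periportal genes were nearer. Hal, the histidine ammonia-lyase, read 6.85 and 6.95 in NASH+ISO, 5.07 and 5.07 in NASH and 8.72 and 8.76 in CTL. Its fall was 1.84 in NASH+ISO and 3.67 in NASH. Etnppl, a phospho-lyase (named Agxt2l1 in the file), fell by 2.73, the immunoglobulin receptor Pigr by 2.14 and glutaminase Gls2 by 1.17. Of the 2 higher genes, Aldh1b1, a mitochondrial aldehyde dehydrogenase, read 8.25 and 8.21 in NASH+ISO, 7.13 and 7.12 in NASH and 6.23 and 6.22 in CTL (2.01). In bulk tissue, fewer cells of a kind and less RNA in each cell cannot be told apart. The urea cycle (9 genes) and methionine and one-carbon metabolism (19 genes) had 0 called.

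Stress programs were mixed. Of 26 NRF2 targets 5 were higher, among them Gstm3 (1.59), Srxn1 (1.48) and the exporter Abcc4 (1.45), and 3 were lower, Gsta2 (-2.00), Abcc3 (-1.63) and Gsta4 (-1.12). Nqo1 (0.15) and Hmox1 (-0.04) did not pass 2-fold. Of 24 unfolded protein response genes 2 were higher, Asns (1.11) and Edem1 (1.08), and the chaperone Hspa5 differed by 0.17. Of 19 p53 targets the cell cycle inhibitor Cdkn1a stood out, with 7.51 and 7.46 in NASH+ISO, 6.71 and 6.70 in NASH and 4.91 and 4.78 in CTL (2.64, SE 0.0515). It was thus 0.78 further from CTL than in NASH, and its list had a median of 0.52.

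The 12 replication and mitosis genes called higher were all nearer to CTL than in NASH by the direct test. Of 47 genes of replication licensing and S phase 7 were higher and 1 lower in NASH+ISO, against 24 and 0 in NASH. Mcm5, a subunit of the helicase that unwinds DNA, read 5.20 and 5.25 in NASH+ISO, 7.92 and 7.81 in NASH and lay under the guide in CTL, at 2.75 and 2.86, so that it was at least 5.02-fold higher than in CTL. Mcm4 read 5.37 and 5.40 in NASH+ISO, against 3.76 and 3.78 in CTL (1.62, SE 0.0388), and NASH was 4.36 above CTL. Mcm6 (1.44), Mcm3 (1.14) and Mcm2 (1.08), of the same ring, and the ribonucleotide reductase genes Rrm2 (1.76) and Rrm1 (1.10) were also higher, while Mcm7, also of the ring, differed by 0.34. Cdc6, which loads the ring, lay under the guide in NASH+ISO, at 2.34 and 2.30, and in CTL, at 2.02 and 2.05. Of 48 genes of G2 and mitosis 5 were higher: Mki67, the Ki-67 antigen (5.68 and 5.50 in NASH+ISO, 3.43 and 3.71 in CTL), Cdc20 (1.63), Ccna2 (1.35), Cdca8 (1.09) and Spc25 (1.07). Only 36 of these 48 lay above the guide, and Cdca2 (-0.12) and Cdca3 (-0.08) did not pass 2-fold. Cyclin D1, Ccnd1, which drives hepatocytes out of rest, read 9.13 and 9.12 in NASH+ISO, 9.83 and 9.87 in NASH and 6.44 and 6.42 in CTL (2.69, SE 0.0392).

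Called matrix genes lay in both directions. Of 19 collagens Col4a2, of the basement membrane, was higher (1.54), and Col5a3 (-1.41) and Col27a1 (-1.01) were lower. Col1a1, the main fibrillar chain, read 5.30 and 5.43 in NASH+ISO, 6.48 and 6.51 in NASH and 5.36 and 5.39 in CTL (-0.01, SE 0.0521), and Col3a1 differed by 0.10. The actin of activated stellate cells, Acta2, read 6.12 and 6.13 in NASH+ISO, 6.24 and 6.28 in NASH and 4.79 and 4.87 in CTL (1.29, SE 0.0442), by 1 of its 3 probe sets. The connective tissue growth factor Ccn2 (1.14) and the receptor Tgfbr2 (1.02) were higher too, and Tgfb1 (0.13), Tgfbr1 (-0.62), Timp1 (0.02) and Pdgfrb (0.17) did not pass 2-fold. Of 25 stellate cell genes 3 were higher (12%) and 1 lower (4%), Ecm1 (-1.22), and the list averaged 4.90 in NASH+ISO and 4.92 in CTL.

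Of 17 genes of recruited macrophages 5 were higher and 0 lower: Fabp5, Lpl, Cd9 (1.73), osteopontin Spp1 (1.48) and galectin-3, Lgals3, which read 6.07 and 6.15 in NASH+ISO, 7.81 and 7.80 in NASH and 4.89 on both CTL arrays. The markers that define these cells were not called: Trem2 differed by 0.00, Itgax by 0.24 and Gpnmb by 0.20. The list averaged 4.89 in NASH+ISO and 4.25 in CTL, while its median difference was 0.01. Of 17 Kupffer cell genes 0 were higher and 2 lower, Slc40a1 (-1.07) and C6, which hepatocytes express as well, and Clec4f (-0.10) and Adgre1 (-0.14) did not pass 2-fold. The lists of T and NK cells (17 genes), MHC class II presentation (10) and chemokines (27) had 0 called, that of B cells 1 (Ighm, -1.13, by 1 of 10 probe sets) and that of interferon-stimulated genes 1 of 29 (Ifi44, 1.22). Only 10 of the 17, 8 of the 10 and 19 of the 27 lay above the guide. Dim genes were seldom called, 0.171% higher and 0.0853% lower at 2.90 to 4 log2, so 0 calls there says little about these cells. Among 22 endothelial genes Lyve1, the hyaluronan receptor of sinusoidal and lymphatic endothelium, read 6.38 and 6.39 in NASH+ISO, 5.39 and 5.48 in NASH and 4.66 and 4.77 in CTL (1.67, SE 0.0533). Of 20 oncofetal and progenitor genes 5 were higher, Ly6d, Afp, Prom1 (1.51), Spp1 and Sox9 (1.01), while the ductal keratins Krt19 (-0.20) and Krt7 (-0.05) were not. Among genes of apoptosis Fas differed by 0.21, Tnf by -0.01, Tnfrsf11b by 0.07, Tnfrsf12a by -0.12, Tnfrsf21 by -0.08, Casp2 by 0.14 and Casp6 by -0.24.

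The 53 genes called in NASH+ISO and within 1.5-fold of CTL in NASH were moderate in size and of many functions. The largest rise among them was that of 1810053B23Rik, an uncharacterized transcript, which read 5.60 and 5.50 in NASH+ISO, 3.46 and 3.35 in NASH and 2.99 and 3.05 in CTL (2.53, SE 0.0571). Plekhd1 read 5.97 and 5.98 in NASH+ISO, 4.45 and 4.56 in NASH and 4.15 and 4.28 in CTL (1.76). A230058F20Rik was at least 2.78-fold higher, since CTL lay under the guide. Ypel2 (1.45, by 2 of its 3 probe sets), 4833423F13Rik (1.34), Rcan2, a calcineurin inhibitor (1.33), the clock gene Per3 (1.32, by 2 of its 6 probe sets) and Scara5, a ferritin receptor (1.29), complete the 8 largest. Rcan2 and Scara5 were called by 1 of 2 probe sets each, and the other differed by 0.01 for Rcan2 and -0.02 for Scara5. Further down, Hamp2, a hepcidin of mice, rose by 1.26 (by 1 of its 2 probe sets) and Angptl8, a feeding-induced inhibitor of lipoprotein lipase, by 1.18. Angptl8 and Alas1 were chosen after their values were seen.

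**Figure D5:**
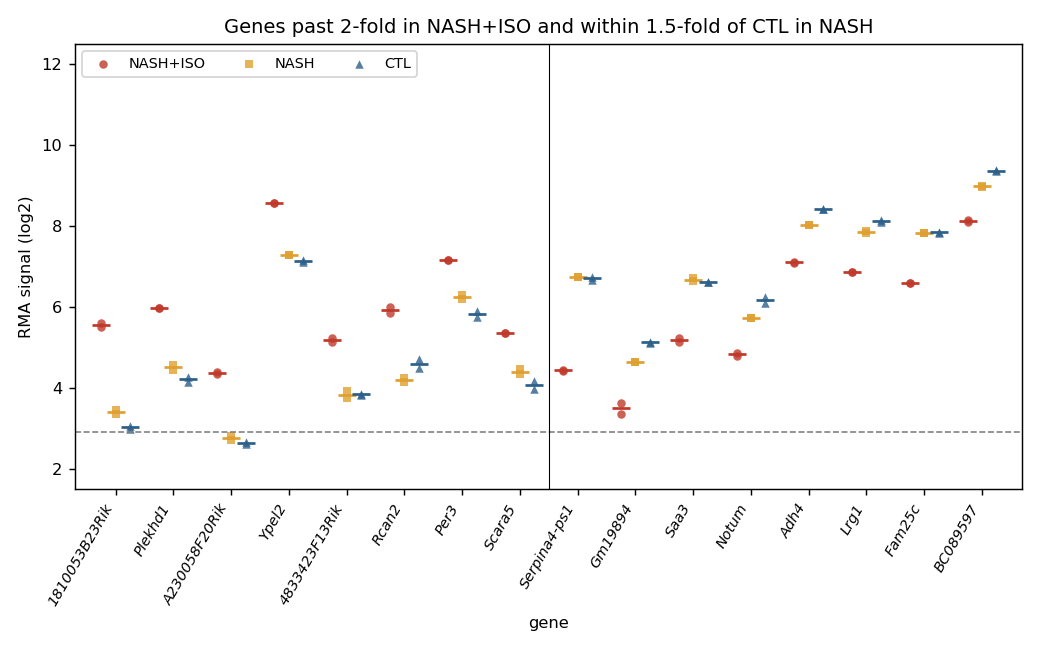
RMA signal (log2) of the 8 largest rises (left) and 8 largest falls (right) among genes called in NASH+ISO against CTL and within 1.5-fold of CTL in NASH. Points are arrays, bars the mean of 2 arrays, and the dashed line the background guide. NASH+ISO lies apart from CTL for every gene drawn, as the choice of genes sets, and NASH differs from CTL by -0.49 to 0.41.

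The largest fall of this kind was that of Serpina4-ps1, a serpin gene of male mouse liver annotated as a pseudogene, which read 4.44 and 4.42 in NASH+ISO, 6.73 and 6.75 in NASH and 6.75 and 6.66 in CTL (-2.28, SE 0.0452), on all 3 of its probe sets. Saa3, an acute phase serum amyloid, read 5.22 and 5.13 in NASH+ISO, 6.64 and 6.71 in NASH and 6.61 and 6.62 in CTL (-1.44, SE 0.0474). Saa1 (-0.48) and Saa2 (0.61), its hepatocyte relatives, did not pass 2-fold. Fam25c read 6.59 and 6.60 in NASH+ISO, 7.83 and 7.82 in NASH and 7.86 and 7.84 in CTL (-1.25). Alas1, the rate-limiting enzyme of heme synthesis in liver, read 8.13 and 8.14 in NASH+ISO, 9.28 and 9.24 in NASH and 9.27 and 9.31 in CTL (-1.16), on both of its probe sets. In NASH these 4 genes lay within 0.06 of CTL. Notum, a Wnt inhibitor (-1.34), Adh4, an alcohol dehydrogenase that also acts on retinol (-1.32), Lrg1, an acute phase glycoprotein (-1.26), Gm19894 (-1.63) and BC089597 (-1.25) complete the 8 largest falls, to which Alas1 does not belong. In NASH the differences of Notum, Adh4, Lrg1, Gm19894 and BC089597 from CTL ran from -0.49 to -0.27.

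Some genes crossed CTL. Serpina7, thyroxine-binding globulin, read 6.86 and 6.85 in NASH+ISO, 9.29 and 9.33 in NASH and 8.42 and 8.44 in CTL, so that it was 1.57 below CTL in NASH+ISO and 0.88 above it in NASH, a difference of -2.45 between them (limma adjusted p = 4.25e-07). Ung, a uracil-DNA glycosylase, read 4.76 and 4.78 in NASH+ISO, 6.79 and 6.83 in NASH and 6.15 and 6.08 in CTL. Its difference from CTL was -1.35 in NASH+ISO and 0.69 in NASH. Bach2, a transcriptional repressor (-1.20), and Gpm6a, a neuronal membrane glycoprotein (at least 1.52-fold lower), were 0.40 and 0.41 above CTL in NASH. Bach2 was called by 2 of its 3 probe sets and Gpm6a by 1 of 2. Rcan2 and 1700029I15Rik crossed the other way, 1.33 and 1.11 above CTL in NASH+ISO and 0.40 and 0.39 below it in NASH. Each was called by 1 of its 2 probe sets, and the other differed from CTL by 0.01 for Rcan2 and -0.04 for 1700029I15Rik. Among genes that moved out on the same side, Smoc2 stood 1.41, Pdzk1ip1 1.35 and Slco1a1 -1.38 beyond NASH. The single probe set called in opposite directions read Rgs16, a brake on G protein signals: it was 1.21 above CTL in NASH+ISO and 1.12 below it in NASH. The brightest Rgs16 probe set, at 0.70 above CTL in NASH+ISO, did not pass 2-fold there.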

How the data were processed

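Liver RNA was hybridized to Affymetrix MG-430 PM 3′ IVT arrays. The deposited values are log2 signals per probe set, which the authors made with RMA in Affymetrix Expression Console. RMA puts arrays on a common distribution, so a shift shared by most genes would not appear. The workbooks hold a second set of log2 signals (mean difference -0.0994 from the first), used for gene names and as an alternative. Their fold changes, p-values, averages and SDs were not used. The study's text and the labels give different RNA amounts.

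Of 45141 entries 104 controls were left out. Of the 45037 probe sets 38068 name 1 gene, 1253 several, 5654 none and 62 a date left by a spreadsheet. Of those with 1 gene 33189 matched a current RefSeq symbol, 2004 an older one and 2875 kept the file's name. The brightest probe set stood for a gene. Of 305 called genes with several probe sets, 68 (22.3%) had all of them called the same way, and 0 had one called the other way. Probe sets can read close relatives of the gene named.

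Group means of all 6 arrays were fitted with limma 3.58.1 in R 4.3.3 (lmFit and eBayes, residual df 3, prior df 4.01) and differences were called at 2-fold and an unadjusted p under 0.05, with Benjamini-Hochberg values beside them. The design was tested on simulated data. Named genes were the 15 largest rises and falls, the 8 largest each way among genes within 1.5-fold of CTL in NASH, the 8 furthest beyond NASH each way, every probe set called in opposite directions, up to 6 members of a list with the largest difference and members that did not pass, and genes named in the study's text. A few genes counted in the lists are not reported by name here. Members and lists were chosen with earlier results of these data known. Alternatives changed the fit, prior, scaling, filter, probe sets per gene, fold, replicate block and arrays. The number of arrays limits the precision.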

Additional observations from a re-analysis of the deposited data

Results flagged for a closer look

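One probe set of Rgs16 stood on opposite sides of CTL in the treated and untreated disease groups. It read 8.18 and 8.21 in NASH+ISO, 5.80 and 5.91 in NASH and 6.94 and 7.02 in CTL, and NASH+ISO was 2.34 above NASH. The direct difference passed in limma at an adjusted p of 1.28e-06. A probe set chosen for being called on opposite sides of CTL has a large direct difference by that choice, so the pass adds no support. Control probe sets outside the comparison also differed: those for 18S ribosomal RNA were lower in NASH+ISO than in CTL by -0.64 at the 3′ end, -2.08 at the 5′ end and -0.95 in the middle, while NASH differed from CTL by -0.05, 0.10 and 0.02. The 14 probe sets for the bacterial spikes bioB, bioC and bioD were higher in NASH+ISO than in CTL by a median of 0.30.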

How the results depend on the processing

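Counts below are of probe sets, against 608 higher, 356 lower, 679 also called in NASH, 109 within 1.5-fold of CTL in NASH, 296 nearer to CTL than NASH, 439 further and 229 that did not pass the direct test. A test against a fold of 2 itself (treat) left 341 higher, 181 lower, 388, 13, 7, 22 and 493 in that order. In this setting the direct difference from NASH was also tested against a fold of 2, so the last counts are of a stricter direct test. With 1 probe set per gene, and so fewer features, the counts were 348, 192, 376, 53, 167, 259 and 114. With all probe sets of each gene averaged they were 249, 141, 273, 39, 110, 196 and 84, and 138 list genes were called in place of 171. A fold of 1.5 gave 1855, 1328, 2239, 805, 987, 1254 and 942, with 317 list genes, and a fold of 3 gave 190, 97, 215, 11, 83, 137 and 67, with 76 list genes. Without moderation of the spread 352 did not pass the direct test, and the cause was not tested. Leaving out each array gave 602 to 633 higher, 355 to 375 lower, 674 to 685, 110 to 120, 256 to 304, 384 to 450 and 234 to 321, with 166 to 174 list genes. The replicate number as a block called the same 964 probe sets, 608 higher and 356 lower. Same-numbered arrays hardly deviated together (r of 0.047 between NASH+ISO and CTL), so the number was taken as a label alone.

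The second set of signals in the authors' workbooks called 928 probe sets, 876 of them among the 964, quantile normalization 981 (935 shared) and median centring 966 (959 shared), and 0 shared calls changed direction. Of the 198 named gene results 0 changed direction, while 8, 5 and 1 of them lost the call under those settings, 55 under treat, 45 with averaged probe sets and 109 at a fold of 3. On the forward strand alone, CCAAT was in 8 of 18 cholesterol (44.4%) and 7 of 15 fatty acid synthesis promoters (46.7%), against 23.7% of all genes. There TGACNNNGC, of the antioxidant response element, was in 3 NRF2 target promoters (14.3%, against 7.29% of all genes) and TTTCCCGC, of E2F, in 0 replication promoters (against 0.592%). With 2 arrays a group, called technical repeats, the spread between mice is not measured, and a probe set near 2.90 log2 gives only a bound.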

Other observations

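Of 17 measured genes of iron handling and metallothioneins 4 were higher in NASH+ISO and 2 lower than in CTL, against 1.68% and 0.929% of all genes. Among genes at 8 to 10 log2 the shares were larger, 6.32% and 4.9%, and this list averaged 8.16 in NASH+ISO. Id1, a target of BMP signalling, read 6.14 and 6.24 in NASH+ISO and 4.19 and 4.24 in CTL, a rise of 1.98. Hjv, the BMP co-receptor hemojuvelin, rose by 1.62, Hamp2 by 1.26 and the transferrin receptor Tfrc by 1.24. The iron exporter ferroportin, Slc40a1, fell by 1.07 and the metallothionein Mt2 by 1.32. Hamp, the main hepcidin gene, differed by 0.06 and Bmp6 by 0.05. The arrays of the groups did not overlap for any of the 6 called genes. This holds for all 348 higher and 192 lower genes as well and is nearly set by the 2-fold call.

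Lists of secreted proteins and vitamin A genes had larger shares called, in at least 1 direction, than all genes (1.68% higher and 0.929% lower). Among genes at 8 to 10 log2 the shares were 6.32% and 4.9%. Of 20 apolipoprotein and secretion genes Apoa4, of lipoprotein particles, was the highest, with 10.65 and 10.64 in NASH+ISO and 7.93 and 7.89 in CTL (2.74), followed by the lipid loading protein Mttp (1.5) and Pltp (1.08), while Apob differed by -0.74. Of 30 complement and clotting genes C8a (-2.04), C8b (-1.94) and C6 (-1.04), all of the membrane attack complex, were lower, and the list median was -0.28. At adjusted p with no fold, 21 of the 30 were lower and 1 higher, against 23% and 23.3% of all genes. Of 22 retinoid genes 3 were higher, among them Rdh11 (1.83) and Rdh16 (1.42), and 3 lower, Aox3 (-2.99), Aox1 (-1.35) and Cyp26a1 (-1.0). Lcn2, lipocalin-2, read 5.17 and 5.28 in NASH+ISO and 3.37 and 3.50 in CTL (1.79). Among clock genes Dbp fell by 1.02 beside the rise of Per3, and Arntl differed by -0.04. Of 14 glycogen genes Ppp1r3b, a subunit that brings a phosphatase to glycogen, was higher (1.81) and Gys2, the liver glycogen synthase, lower (-1.29). Among 15 ribosomal protein genes Rplp2 was called (1.15), and of 26 respiratory chain genes 0 were called, with a median of 0.06.

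In RefSeq promoter windows of 300 bases, on both strands, TGACNNNGC was in 6 of 21 NRF2 target genes (28.6%, against 14% of all genes) and TTTCCCGC in 8 of 37 replication genes (21.6%, against 1.24%). TTCNNNGAA, of STAT5, was in 2 of 10 male-biased genes and 4 of 15 growth hormone axis genes, against 9.55% of all genes. These matches describe the letters of the windows only.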
